A study of Mus musculus with 6 samples.

Results

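The deposited small RNA table holds 74 features that carry the miRNA name of another species and have no mouse position, out of 756 features in all. They were chosen from the rows that the table labels gp3, which number 80, after 2 rows whose miRNA numbers are treated apart were left out. The remaining 78 rows were summed where name and sequence were the same. No row of the 74 features has a chromosome, start or end in the table, while 680 of the 756 features have one. The features hold 65 distinct sequences, since 8 sequences stand under several names and the reads are split over these names. Cattle names (prefix bta) make up 47 of the 74. Human names (hsa) make up 7, goat names (chi) 5 and opossum names (mdo) 3, and 9 other prefixes share the rest. By the species of the hairpins listed for each feature, 27 belong to cattle, goat or sheep only and 47 do not. The split depends on those lists, and 26 features list the cattle hairpin bta-mir-2285bf-2, 25 of them under another miRNA's name. The sequence was identical to the miRBase entry in 32 features and differed from it in 42.

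The 6 libraries are labelled as Mes23.5, a dopaminergic line made by fusing mouse neuroblastoma cells with rat midbrain cells, and all 6 were exposed to lipopolysaccharide (LPS, from the outer membrane of bacteria) for 24 h. Cells of the SIX2_EV group (3 libraries) were given extracellular vesicles of microglia that overexpress SIX2, a homeobox transcription factor. Cells of the control_EV group (3 libraries) were given vesicles of control microglia. The growth protocol names BV2, a mouse microglial line, so the cell of origin is given as labelled, and 0 features carried the name miR-124, the defining miRNA of neurons. Nothing in the labels ties the libraries to different cultures, and p-values therefore reflect only how these libraries varied, possibly for technical reasons.

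A miRNA is cut from a hairpin precursor, and its seed, bases 2 to 8, chooses the mRNAs it silences. Mature miRNAs are often conserved between mammals, so a name from another species can belong to a sequence that the mouse also makes. Enzymes can add bases to the 3′ end of a finished miRNA, and such bases are not copied from the gene. Transfer RNAs (tRNAs), which bring amino acids to the ribosome, end in CCA, which in mammals is also added after transcription. A read that ends in added bases does not match the genome along its whole length. Cultured cells are commonly grown in serum of cattle, which contains miRNAs of its own.

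The sequences fell into several kinds when they were laid without gaps along the mouse miRNA hairpins and mature miRNAs of RefSeq (build GRCm38.p6). Rat sequences were not searched, although the labelled line is in part of rat origin. Of the 74 features, 0 matched along the whole length, which can follow from their selection for lacking a mouse position. In 11 features all differences lay in the last 4 bases. Another 16 features differed from a mouse entry at 1 to 3 bases placed elsewhere. Over their whole length, extra end bases included, the other 47 had no mouse entry within 3 differences, and 23 of these belong to cattle, goat or sheep only. When only the bases that overlap a mouse mature miRNA were counted, 2 of the 47 came within 3 differences, bta-miR-2478 with 1 from mmu-miR-3963 and bta-miR-655 with 3 from mmu-miR-369-3p.

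Of the 11 features that match a mouse hairpin up to their end, 10 are shown, because only the 3′ end sets them apart from mouse. Capitals mark the bases that differ from the hairpin at that place.
eca-miR-17: caaagtgcttacagtgcaggtagAT
mdo-miR-181a-5p: aacattcaacgctgtcggtgagttAT
mdo-miR-181b-5p: aacattcattgctgtcggtgggttAT
mdo-miR-186-5p: caaagaattctccttttgggcttAT
bta-miR-339a: tccctgtcctccaggagctcaAT
cfa-miR-194: tgtaacagcaactccatgtggaT
cgr-miR-532-5p: catgccttgagtgtaggaccgtAA
bta-miR-424-5p: cagcagcaattcatgttttgAaA
bta-miR-363: aattgcacggtatccatctgCG
ptr-miR-877: gtagaggagatggcgcaggggacaTT
Among the mouse hairpins they match are Mir17 on chromosome 14 at 115043671 to 115043754, Mir181a-1 and Mir181b-1 on chromosome 1 at 137966455 to 137966541 and 137966639 to 137966718, and Mir186 on chromosome 3 at 157544279 to 157544349. Mir339 lies on chromosome 5 at 139369650 to 139369745, Mir194-1 on chromosome 1 at 185313319 to 185313385 and Mir532 on chromosome X at 7248402 to 7248497. Where hairpins matched equally well, a single one was kept, so a position given here need not be the only one. Of the 11 features, 7 ended in AT and 4 did not, while 46 of 680 features with a mouse position (6.76%) ended in AT. The 11 were selected for differences at their end and the 680 for having a position. This contrast can therefore follow from the selection alone.

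The features with differences inside the sequence are shown by 5 examples, again with the differing bases in capitals. The substitutions give the base of the mouse mature miRNA, the position counted from 1 at its 5′ end, and the base of the feature.
bta-miR-374a: TtataatacaacctgAtaagt
bta-miR-215: atgacctatgaAttgacagacA
bta-miR-380-3p: tatgtaAtGtggtccacGtct
bta-miR-155: ttaatgctaatCgtgatagggA
bta-miR-323b-3p: cacaAtacacggtcgGcctct
bta-miR-215 differed from mmu-miR-215-5p by T12A and had 1 base more. bta-miR-155 differed from mmu-miR-155-5p by T12C and G22A, bta-miR-323b-3p from mmu-miR-323-3p by T5A and A16G, and bta-miR-380-3p from mmu-miR-380-3p by G7A, A9G and A18G. The change at base 5 of miR-323-3p and that at base 7 of miR-380-3p lie in the seed. bta-miR-374a has the sequence of chi-miR-374a-5p. Its capitals above mark the differences from the hairpin Mir374b, and it shares its seed with mmu-miR-374b-5p. When only overlapping bases were counted, it was nearest to mmu-miR-374c-5p, with C14A. Its first bases lay outside that overlap.

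The third kind ended in CCA. It holds 7 of the 74 features (9.46%), against 20 of the 682 other features (2.93%), and 5 of the 7 are 18 bases long. The 74 were chosen for lacking a mouse position, so this contrast can also follow from the selection. Capitals mark the CCA end.
pal-miR-9993a-3p: atctcggtgggacctCCA
hsa-miR-7977: ttcccggccaacgcaCCA
cgr-miR-1260: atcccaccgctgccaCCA
hsa-miR-4454: cgaatccgagtcacggcaCCA
bta-miR-2478: tcgtatcccacttctgacaCCA
Without CCA, 0 of the 7 sequences formed the end of a mouse mitochondrial tRNA in GENCODE M21, and nuclear tRNA genes were not searched. miR-1260, miR-2478 and miR-4454 were also in a list of entries questioned as fragments of other RNAs.

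Cattle, goat or sheep features with no mouse entry within 3 differences over their whole length are shown by their most abundant examples, with the seed in capitals.
bta-miR-2284x: tGAAAAGTtcgttcgggttttt
bta-miR-2285k: aAAACCGGaatgaactttttgg
bta-miR-3431: cCTCAGTCagccttgtggatgt
bta-miR-660: tACCCATTgcatatcggagctg
bta-miR-6119-5p: aGAGGTAAaaaattgatttgact
The miR-2284 and miR-2285 families, which are large in cattle, gave 11 features with 9 sequences. The 74 features have 63 different seeds, and 25 of these seeds occur in a mouse mature miRNA of RefSeq. Only 2 seeds were shared by sequences that differ, AAAAGTT in the miR-2284 and miR-2285 families and ACATTCA in the miR-181 pair.

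Further kinds were short or matched other mouse RNA. efu-miR-9341, named from a bat, occurs whole on the same strand in GENCODE M21 entries of 33 gene names, of which 20 are annotated as small nuclear RNA (snRNA) and 11 as miRNA. Its sequence is that of a stretch of U2 snRNA, a part of the spliceosome.
efu-miR-9341: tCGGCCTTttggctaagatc
Only 2 other features occur whole in a GENCODE M21 transcript, bta-miR-4286 in 6 genes and hsa-miR-7977 in 2. The features hsa-miR-7704, ssc-miR-4332 and hsa-miR-10400-5p are 18 bases long with a GC content of at least 70%, and are shown by the 2 that were tested.
hsa-miR-7704: cGGGGTCGgcggcgatgt
ssc-miR-4332: cGGCCGCCgccgggcgca

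The libraries differed in depth and makeup. Deposited reads ranged from 179621 to 232635 in SIX2_EV and from 253037 to 421279 in control_EV, with the most in control_EV replicate 3. Features of the table's class gp1, without arms named p5 or p3, are called mature miRNA reads here and took 6.79% to 32.7% of reads in SIX2_EV and 31.5% to 70.9% in control_EV. Summed by sequence, 31 of 2410 values above 0 were under 5 reads, so a 0 is given as listed at 0 and not as absence. In bulk RNA, fewer cells that make a sequence and less of it per cell cannot be told apart.

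Together the 74 features took a small share of the deposited reads, and all 3 shares of SIX2_EV lay below those of control_EV. The SIX2_EV libraries had 0.103% (Wilson 95% confidence bounds 0.0887 and 0.118), 0.122% (bounds 0.108 and 0.137) and 0.202% (bounds 0.182 and 0.224). Control_EV had 0.249% (bounds 0.230 and 0.269), 0.261% (bounds 0.242 and 0.281) and 0.821% (bounds 0.794 and 0.849). The bounds cover counting error only. Control_EV replicate 3 held 61.8% of all reads of the 74 features, against 27.6% of all deposited reads. The means were 0.142% ± 0.0528 and 0.444% ± 0.327 (SD, n = 3), and without control_EV replicate 3 the control mean was 0.255%. No test was made on this sum, because the features were chosen with earlier results known. Per 1000 mature miRNA reads, the features reached 7.40, 17.9 and 6.19 with SIX2 vesicles and 7.90, 4.60 and 11.6 with control vesicles, and on this scale the groups overlapped.

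**Figure D1:**
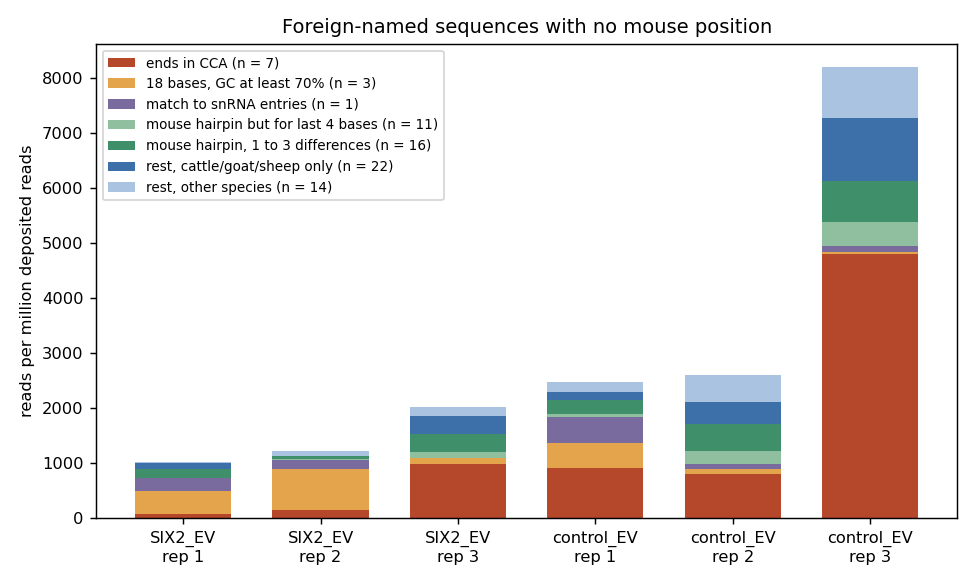
Reads as CPM of the deposited total, without TMM (vertical axis), of the 74 foreign-named features with no mouse position in each of the 6 libraries, stacked by kind of sequence, with the number of features of each kind in the key. The column of control_EV replicate 3 reaches 8214, against 1027 to 2610 in the other libraries, and CCA-ended sequences make up 4802 of it.

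The CCA-ended features held 48.0% of all reads of the 74. Their reads were 13, 34 and 182 with SIX2 vesicles and 234, 202 and 2023 in control_EV, which is 0.00724%, 0.0146% and 0.0988% against 0.0908%, 0.0798% and 0.480% of deposited reads. The groups overlapped, with the third SIX2_EV library above the first and second control_EV libraries. The 20 CCA-ended features outside the 74 had 0.0106%, 0.00860% and 0.100% in SIX2_EV and 0.0862%, 0.0830% and 0.576% in control_EV.

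The most abundant of them, pal-miR-9993a-3p, is also the feature with the most reads among the 74 (26.6% of their reads). It was read 13, 17 and 102 times in SIX2_EV and 113, 91 and 1152 times in control_EV. In CPM (read counts per library scaled to a common total with TMM, the trimmed mean of M values), that is 275 ± 173 and 557 ± 420 (SD, n = 3), with overlapping groups. hsa-miR-7977 had 0, 11 and 48 reads against 78, 78 and 450, and cgr-miR-1260 had 0, 6 and 26 against 38, 28 and 342. All 3 had their highest count in control_EV replicate 3 and their highest SIX2_EV count in replicate 3. hsa-miR-4454, bta-miR-4286, bta-miR-2478 and pal-miR-9993b-3p had at most 35 reads in any library.

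The short GC-rich features were high in other libraries. They summed to 78, 174 and 21 reads with SIX2 vesicles and to 117, 26 and 19 with control vesicles. hsa-miR-7704 was read 66, 137 and 8 times in SIX2_EV and 93, 19 and 12 times in control_EV, and ssc-miR-4332 had 12, 37 and 5 against 15, 7 and 0. High counts stood in replicates 1 and 2 of SIX2_EV and replicate 1 of control_EV, so the groups overlapped for both. efu-miR-9341 had 40, 37 and 0 reads against 125, 21 and 48. These libraries are also the 3 with the lowest mature miRNA shares (13.9%, 6.79% and 31.5%). SIX2_EV replicate 3 had a share close to the last of these (32.7%), with 21 GC-rich reads and 0 reads of efu-miR-9341. The part of that makeup in the counts was not tested.

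Features of cattle, goat or sheep only gave 24, 0 and 65 reads with SIX2 vesicles and 54, 132 and 595 with control vesicles. As a share of deposited reads this is 0.0162% ± 0.0178 and 0.0715% ± 0.0624 (SD, n = 3), and the groups overlapped, since the third SIX2_EV library at 0.0353% was above the first control_EV library at 0.0210%. SIX2_EV replicate 2 listed 0 of the 27, and control_EV replicate 3 listed all 27. Of all 756 features, the same libraries listed 36.5% and 89.9%. bta-miR-2284x led the 27 with 7, 0 and 40 reads against 36, 68 and 198. bta-miR-380-3p had 5, 0 and 5 against 9, 17 and 65. bta-miR-2285k, bta-miR-3431 and bta-miR-660 had at most 8 reads in any SIX2_EV library and at most 57 in any control_EV library, with a 0 in both groups. bta-miR-6119-5p and bta-miR-378 were listed at 0 in all SIX2_EV libraries. Their control_EV reads of 0, 12 and 37 and of 9, 6 and 14 give means under the 46.8 CPM that 5 reads are worth on average in SIX2_EV, so no fold was computed.

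**Figure D2:**
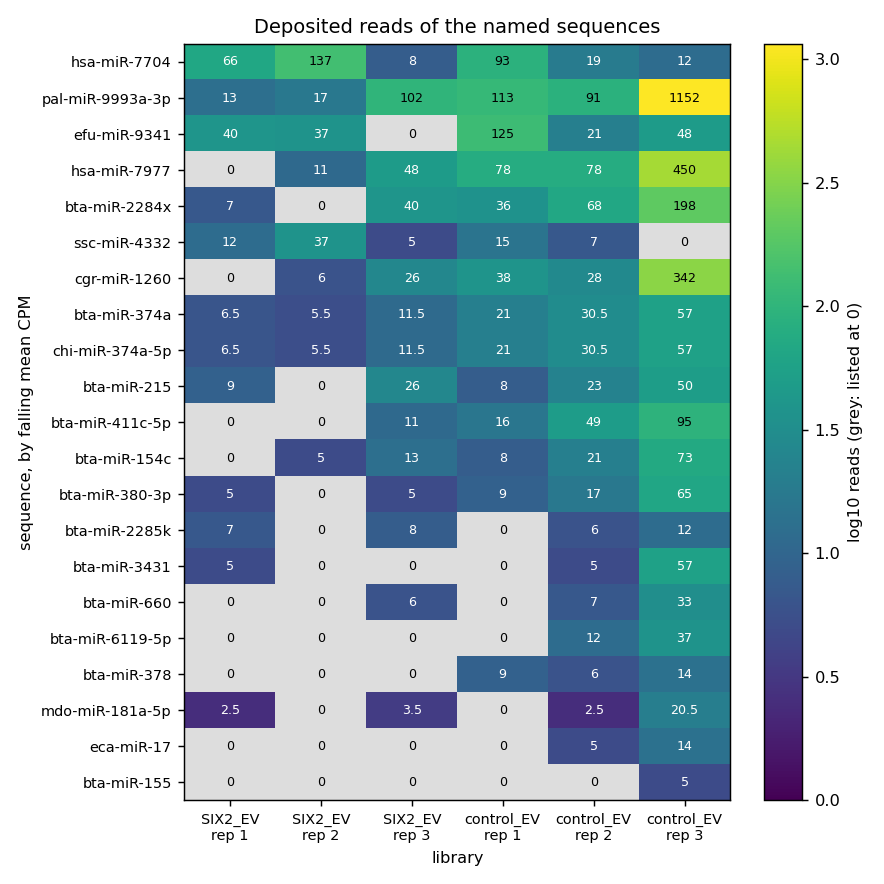
Deposited reads of the 21 named features (rows, by falling mean CPM) in the 6 libraries (columns), with the number of reads printed in each cell and the colour on a log10 scale, grey for listed at 0. Most rows are brightest in control_EV replicate 3, while hsa-miR-7704 is highest in SIX2_EV replicate 2 with 137 reads.

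Several relatives of mouse miRNAs were rarer than the mouse-placed feature of the same number. eca-miR-17, with an AT end, had 5 and 14 reads in control_EV replicates 2 and 3 and 0 elsewhere, while rno-miR-17-5p, of a family that promotes proliferation, was read 417, 262 and 486 times in SIX2_EV and 1848, 3338 and 5016 times in control_EV. mdo-miR-181a-5p, which also ends in AT, made up 1.21% of the reads of both forms together, and bta-miR-155 made up 1.06% beside rno-miR-155-5p, a miRNA induced by LPS in macrophages. The sequence of bta-miR-374a and chi-miR-374a-5p had 13, 11 and 23 reads against 42, 61 and 114 over both names. The placed rno-miR-374-5p had 15, 6 and 106 against 59, 128 and 436. By contrast, bta-miR-215 with 9, 0 and 26 reads against 8, 23 and 50 was above the placed cgr-miR-215-5p, which had 0, 0 and 5 against 5, 13 and 45 and is the same sequence without its last base. miR-215 is known from intestine and liver.

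Of 15 lists of miRNAs by tissue or cluster, 6 held any of the 74 features. The Dlk1-Meg3 cluster, an imprinted group of miRNAs in placental mammals, held 13 of them, among them bta-miR-411c-5p, bta-miR-154c, bta-miR-380-3p and bta-miR-432. Their summed reads were 5, 5 and 35 in SIX2_EV and 39, 112 and 295 in control_EV, or 92.2 ± 59.0 and 229 ± 75.0 CPM (SD, n = 3), with overlapping groups. bta-miR-411c-5p had 0, 0 and 11 reads against 16, 49 and 95, and the placed rno-miR-411-5p, which shares the number but has another seed, had 10, 0 and 15 against 33, 51 and 184. bta-miR-154c had 0, 5 and 13 against 8, 21 and 73. Entries questioned as fragments of other RNAs gave 6 features, the liver and gut, miR-17-92 and miR-181 lists 2 each, and the leukocyte list 1. The let-7, red blood cell and serum, muscle, neuronal, epithelial, endothelial and mesenchymal, miR-10 and related, miR-30 and miR-29 lists gave 0.

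Listing itself differed between libraries. The features above 0 numbered 13, 13 and 22 of 74 in SIX2_EV and 24, 36 and 70 in control_EV. In control_EV alone 45 of 74 (60.8%) were listed, against 36.4% of all 756 features, and in control_EV replicate 3 alone 29 of 74 (39.2%), against 23% of all. Only 4 of 74 (5.41%) were listed in all 6 libraries, against 25.1% of all. These percentages were not matched for abundance. Of the 74 features, 30 had under 10 reads in each library, and control_EV replicate 3 is the deepest library. When reads were scaled to the smallest deposited total and counted from 5 reads, the features numbered 12, 7 and 17 in SIX2_EV and 15, 19 and 39 in control_EV. At this equal deposited total, which leaves the mature miRNA shares as unequal as before, the groups overlapped, with 17 in SIX2_EV replicate 3 against 15 in control_EV replicate 1.

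**Figure D3:**
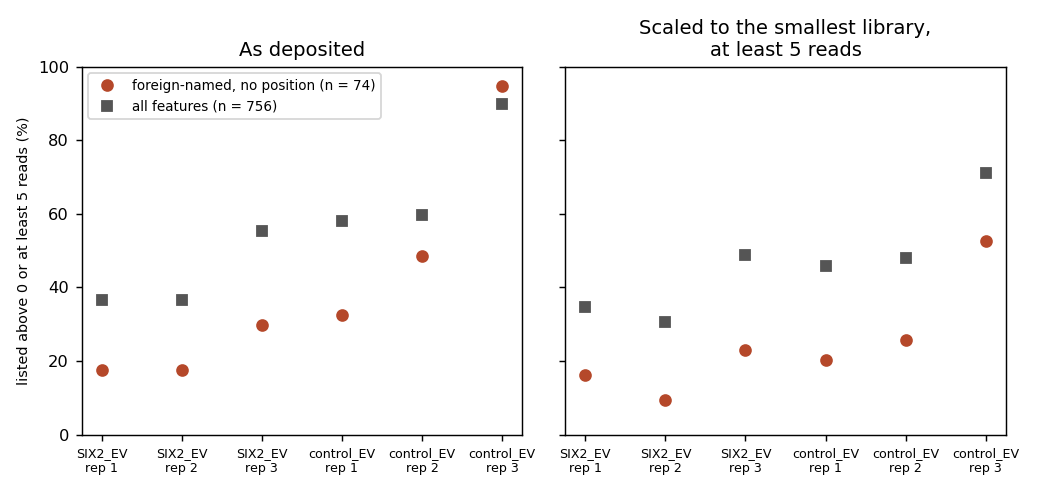
Percent of features listed (vertical axis) in each library, for the 74 foreign-named features (circles) and all 756 features (squares), as deposited on the left and after scaling to the smallest library with at least 5 reads on the right. The circles lie below the squares except in control_EV replicate 3 as deposited, where they reach 94.6% against 89.9%.

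The comparison of the groups asked whether vesicles of SIX2-overexpressing microglia change small RNAs in the recipient cells. Of the 74 features, 13 passed the low-count filter (17.6%, against 42.2% of all features), 12 of them not limited to cattle, goat or sheep. The 13 features hold 12 sequences, since the miR-374a sequence counts under each of its 2 names. In edgeR's quasi-likelihood test, 0 of 13 passed an adjusted p of 0.05, as did 0% of the 319 tested features, and 0 of 13 had an unadjusted p under 0.05, against 12.2% of all tested (6.58% lower and 5.64% higher in SIX2_EV). DESeq2 and limma-voom also called 0 of the 13 at an adjusted p of 0.05. Over all features DESeq2 called 20 and limma-voom 0. By unadjusted p under 0.05, DESeq2 gave 0 of the 13, against 16.9% of all tested, and limma-voom gave 1, bta-miR-411c-5p, against 19.4% of all tested. The smallest adjusted p among the 13 was 0.578 by edgeR. The log2 fold change was negative for 9 of 13, against 64.6% of all tested, with a median of -0.20 against -0.30 for all tested. With total counts in place of TMM it was negative for 11 of 13, against 83.1%, with medians of -1.52 and -1.54.

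bta-miR-411c-5p had the lowest value, at 0, 0 and 50.0 CPM with SIX2 vesicles against 58.5, 122.6 and 85.0 CPM. Each SIX2_EV library was below each control_EV library, which held for 1 of 13 in this direction, against 16.9% of all tested, and for 0 of 13 in the other, against 5.96%. Its log2 fold change was -2.18 (SE 1.42, adjusted p 0.596 by edgeR). With 1 other library left out it lay between -2.46 and -1.69, and without SIX2_EV replicate 3 it was -8.10, a fitted value that depends on the prior count since both remaining SIX2_EV libraries are listed at 0. On the share of deposited reads, hsa-miR-7977 and the miR-374a sequence under both names also did not overlap, with SIX2_EV lower. That makes 4 of 13 on this scale, against 28.8% of all tested, and 0 of 13 in the other direction, against 2.82%. The 4 count the miR-374a sequence under each of its 2 names.

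The highest values belonged to the GC-rich features. ssc-miR-4332 had a log2 fold change of 3.19 (SE 1.91, adjusted p 0.578 by edgeR) from 218 ± 264 and 24.1 ± 28.0 CPM, and hsa-miR-7704 of 2.70 (SE 1.64) from 861 ± 962 and 133 ± 180 CPM (SD, n = 3). Both fell short of the threshold, and with total counts the values were 1.56 and 1.10. Without SIX2_EV replicate 2 they were 1.64 and 1.46, and without control_EV replicate 1 they were 4.67 and 4.91. The CCA-ended pal-miR-9993a-3p, hsa-miR-7977 and cgr-miR-1260 had log2 fold changes of -1.01 (SE 0.74), -1.23 (SE 1.27) and -1.33 (SE 1.34). Scaled by total counts these were -2.36, -2.47 and -2.70. Without control_EV replicate 3 they were -0.11, -0.85 and -0.54, and without SIX2_EV replicate 3 they were -1.52, -1.88 and -2.003. Without SIX2_EV replicate 1 they were -0.70, -0.68 and -0.79. bta-miR-2284x had -0.90 (SE 1.23) from 82.8 ± 92.0 and 159.6 ± 24.5 CPM (SD, n = 3), or -1.79 with total counts, -0.32 without SIX2_EV replicate 2 and -2.01 without SIX2_EV replicate 3. The values of bta-miR-215 (0.67, SE 1.21) and efu-miR-9341 (0.69, SE 1.73) were -0.35 and -0.84 with total counts. With 1 library left out they ranged from 0.21 (without SIX2_EV replicate 3) to 1.29 (without SIX2_EV replicate 2) and from 0.18 (without SIX2_EV replicate 2) to 2.63 (without control_EV replicate 1). mdo-miR-186-5p, with an AT end, was read 0, 0 and 16 times against 6, 15 and 69. bta-miR-374a, bta-miR-154c and mdo-miR-186-5p had log2 fold changes of -0.06 (SE 0.71), -0.20 (SE 1.22) and -0.58 (SE 1.45).

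**Figure D4:**
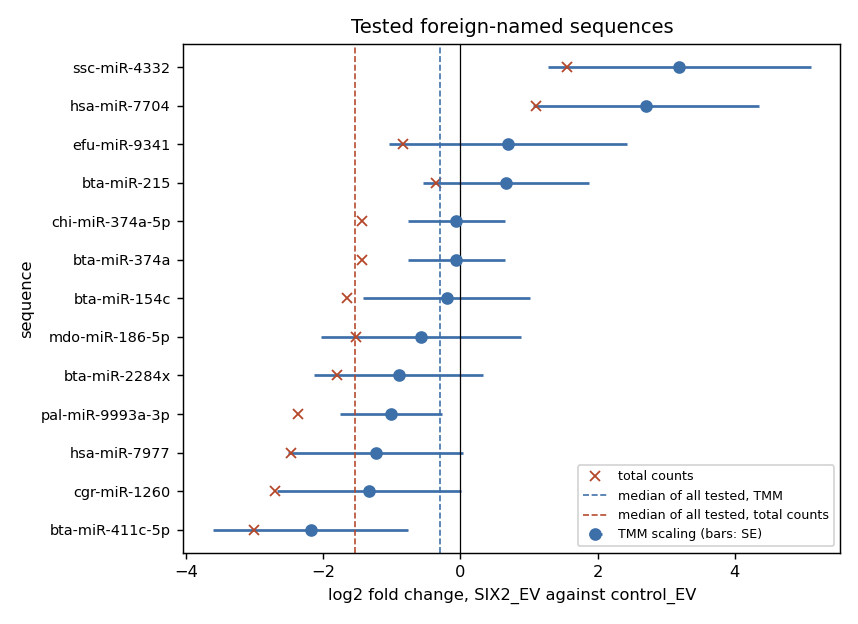
Log2 fold change of SIX2_EV against control_EV (horizontal axis) for the 13 tested foreign-named features (rows), with TMM scaling as circles with SE bars and with total counts as crosses; dashed lines mark the medians over all 319 tested features at -0.30 and -1.54. The crosses lie left of the circles in every row, and the row order runs from bta-miR-411c-5p at -2.18 to ssc-miR-4332 at 3.19.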

How the data were processed

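Small RNA from 6 libraries (3 SIX2_EV, 3 control_EV) was used. Per the labels' protocols, the authors extracted RNA with Trizol, made libraries with the TruSeq small RNA kit and used ACGT101-miR to remove adapter dimers, junk, low-complexity reads, repeats and common RNA families, tRNA and snRNA among them. Build and miRBase release: not given in the sources used here. Values in the deposited table are estimated counts split over hairpins, per the file headers (raw), and, per the file headers (norm), the authors' normalized signal (norm), used only as an alternative. Counts were summed by name and sequence and rounded. The fit covered the whole table: edgeR 4.0.16 (R 4.3.3), quasi-likelihood test, TMM, filterByExpr, no block, Benjamini-Hochberg adjustment at 0.05. The code was run on simulated counts with a fixed spread and without the differences in makeup of these libraries. That run does not measure power or error in these data. Limma 3.58.1 and DESeq2 1.42.0 served as alternatives. Deposited reads were 179621, 232635 and 184208 in SIX2_EV and 257628, 253037 and 421279 in control_EV. Replicates differed by far more than counting error (the lowest chi-square per degree of freedom was 42.7). The features and lists were chosen with earlier results of these data known. Features were named by abundance (the 12 highest, and 6 in each hairpin class), the 8 smallest p, groups without overlap from 10 CPM, and the most abundant feature of each list; mdo-miR-186-5p, other sequences and the features of small groups were named after their values were seen. The kinds of sequence (CCA end, GC content, differences from mouse) were also set after the sequences were seen. Sequences were matched to 1005 mouse hairpins and 1738 mature miRNAs of RefSeq.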

Additional observations from a re-analysis of the deposited data

How the results depend on the processing

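With every alternative run, 0 of the tested foreign-named features passed an adjusted p of 0.05. Among all tested features 0 passed in each alternative except DESeq2, which called 20. The number of these features with an unadjusted p under 0.05 was 0 in the main test and 1 with limma-voom (19.4% of all tested), with a filter of 10 CPM (1 of 26, against 12.3%), with zeros set to 4 reads (14.1%) and with the authors' normalized signal (18.2%). It was 2 of 11 in replicates 1 and 2 only, against 31.9%, an alternative chosen after seeing the data. It ranged from 0 to 3 when 1 library was left out. It was 3 of 16 without control_EV replicate 1 (bta-miR-1468, bta-miR-6119-5p and hsa-miR-7704), against 14.9%, and 2 of 16 without SIX2_EV replicate 3 (bta-miR-411c-5p and mdo-miR-186-5p), against 26%. Their median log2 fold change of -0.20 (all tested -0.30) was -1.52 with total counts (all -1.54), -0.69 with limma-voom (all -0.39), -0.91 with the authors' normalized signal (all -0.43) and, over all 74 features, -2.55 with no filter (all 756 features -1.05). It ranged from -1.08 to -0.086 when 1 library was left out. Whether the replicate numbers pair the libraries was not settled. Same-numbered libraries had correlations of 0.21, 0.07 and 0.67 in their deviations from the group means. Other pairs ranged from -0.67 to 0.62, and the first SIX2_EV library was closest to the second control_EV library (0.36). With 3 libraries per group these deviations depend on each other, so the correlations cannot decide pairing. With the replicate block 0 features passed, 45 in place of 39 had an unadjusted p under 0.05, the median was -0.76 (all -0.43) and efu-miR-9341 was at -0.045. Signs turned for bta-miR-215 (-0.35 with total counts, -0.34 with limma-voom, -0.37 with the authors' normalized signal), efu-miR-9341 (-0.84 with total counts, -0.16 with the authors' normalized signal) and bta-miR-154c (0.22 with zeros set to 4 reads; -0.67 to 0.38 when 1 library was left out). They also turned for bta-miR-374a and chi-miR-374a-5p, each at 0.10 with RLE factors, 0.061 with DESeq2, 0.22 with limma-voom, 0.016 with zeros set to 4 reads, 0.056 in replicates 1 and 2 only, and -0.19 to 0.20 when 1 library was left out. mdo-miR-186-5p, at -0.58 in the main test, was not among the 5 negative features with zeros set to 4 reads. The causes were not tested. The SIX2_EV read share of 0.142% was 0.0648% when limited to features listed in all 6 libraries, where the control share of 0.444% was 0.156%, and ranged from 0.112% to 0.162% when 1 library was left out; the control share ranged from 0.255% to 0.541%. The cattle, goat and sheep share ranged from 0.00668% to 0.0243% in SIX2_EV and from 0.0366% to 0.0967% in control_EV; none of these features was listed in all 6 libraries, so that alternative gave no value. Features with few reads limit every statement on single sequences: 30 of 74 had under 10 reads in each library.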
